A study of Mus musculus with 6 samples.

Results

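WNT ligands, their receptors and inhibitors, and the TCF factors that carry the signal to DNA were examined in the open chromatin of beige, white and brown adipocytes. The 10 genes were chosen by name for their part in adipogenesis. They were the ligands Wnt5a, Wnt6, Wnt10a and Wnt10b, the secreted inhibitor Sfrp1, the coreceptors Lrp5 and Lrp6, β-catenin (Ctnnb1), and the transcription factors Tcf7l1 and Tcf7l2. They are 10 of the 21938 protein-coding genes of GENCODE on mm10. ATAC-seq, in which a transposase cuts accessible DNA, had been performed on 2 beige, 2 white and 2 brown cultures, and the deposited data are 1 list of peaks per library. The intervals of the 6 lists were merged into 194610 regions, of which 155816 had their summit within 50 kb of a protein-coding gene and 275 from 50 kb before to 50 kb after a member. A promoter peak was one with its summit within 1 kb of the start of a protein-coding transcript.

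All cultures were grown from the stromal vascular fraction, the progenitor-rich cells released from adipose tissue, of male C57BL/6J mice aged 3 to 4 weeks, and were taken on day 7 of differentiation. Inguinal fat gave the beige and the white cultures, and brown adipose tissue gave the brown ones. The beige and brown media held 5 μM dexamethasone, 0.5 mM IBMX, insulin, 1 nM T3 and 1 μM rosiglitazone, a PPARγ agonist. The white medium held 1 μM dexamethasone, 0.5 mM IBMX and insulin, with neither T3 nor rosiglitazone. In the paper's methods for beige and white, dexamethasone and IBMX were in the induction medium only. It was later replaced by medium with insulin, T3 and rosiglitazone for beige, and with insulin alone for white. Beige and white therefore differ by medium, brown and beige by tissue of origin, and brown and white by both together. The brown samples were also registered apart from the inguinal ones, under labels of another format, and whether they were prepared at the same time is not given in the sources used here. Tissue of origin and any such difference cannot be told apart. Each library was made from 50000 nuclei of such a culture, which may still hold cells that did not become adipocytes. Their share was not measured here.

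WNT ligands bind Frizzled receptors together with Lrp5 or Lrp6. The canonical branch then spares β-catenin from degradation, and β-catenin enters the nucleus and joins TCF/LEF factors at their target genes. In preadipocytes canonical signalling, of which Wnt10b is the best known ligand, holds back adipogenesis, while Sfrp1 binds WNT ligands outside the cell and favours it. Wnt5a acts mainly through branches that do not use β-catenin.

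The lists held 118812 and 127490 peaks in beige, 120473 and 119385 in white, and 113861 and 109143 in brown (replicates 1 and 2). They give no read counts, so that the depth is not known from them, and an absent peak means only that none was called at the authors' q value under 0.05. A -log10 q depends on depth, so levels were compared as the percentile of a peak among all peaks of its own list, where 0 is the lowest and 100 the highest. Of the 275 regions near members, 24 (8.73%) were called in white replicate 1 alone, more than in any other single library, as was so over all regions near genes (8.10%). Beige replicate 1 and brown replicate 1 had 8 each (2.91%, against 4.03% and 4.39% of all). The replicates shared 67.5% of the regions called in either of them in beige, 63.9% in white and 64.0% in brown, while a pair of libraries from different conditions shared from 51.9% (white replicate 1 and brown replicate 2) to 68.3% (beige replicate 1 and brown replicate 1). Over all regions near genes the replicates shared 68.6% in beige, 58.6% in white and 63.3% in brown, and pairs from different conditions from 54.97% to 64.5%. Over all regions the beige replicates thus shared more than any pair from different conditions, which the white and brown replicates did not, and near the members no condition did. Promoter peaks of the 8 adipocyte markers, Adipoq and Pparg among them, were present in all 6 libraries. Of 5 markers of the brown depot, Lhx8, Ebf2 and Cidea had one in all 6, Ucp1, the uncoupling protein of brown fat, in the brown libraries alone, and Zic1 in the brown libraries and beige replicate 2. Of 5 progenitor markers, Pdgfra, Dpp4 and Cd34 had one in all 6, Pi16 in all but brown replicate 1, and Ly6a in none. The macrophage genes Ptprc, Csf1r and Spi1 and the endothelial gene Cdh5 had none in any library, whereas 2 of 6 macrophage markers (Adgre1 and Cd68), 2 of 4 endothelial (Pecam1 and Kdr), 2 of 3 neuronal (Snap25 and Syt1) and 0 of 4 skeletal muscle markers had a promoter peak in all 6. Conditions were not compared by a test, because the smallest two-sided p that an exact permutation of 2 libraries against 2 can give is 0.333, and for 2 against 4 it is 0.133. In such bulk cultures, fewer cells that open a site and a site less open in every cell cannot be told apart.

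Sequences are shown for the regions on which the differences between conditions turn. They come from the plus strand of the mm10 chromosomes (RefSeq copy, GRCm38.p6), 100 bases to each side of the summit. Capitals mark matches to consensus letters searched on both strands: AP-1 (TGANTCA), ETS (CCGGAAG or CAGGAAG, which exclude each other), EBF (CCCNNGGGA), C/EBP (TTGCNNAA), the glucocorticoid receptor (ACANNNTGT), TCF/LEF (CTTTGAT), and the PPARG DR1, which is AGGTCA repeated in the same direction with 1 base between. The first 2 lie beyond the 3′ end of Wnt10a and were called in beige and brown and not in white.
Wnt10a, 15254 bp from its start, chr1:74806670-74806870: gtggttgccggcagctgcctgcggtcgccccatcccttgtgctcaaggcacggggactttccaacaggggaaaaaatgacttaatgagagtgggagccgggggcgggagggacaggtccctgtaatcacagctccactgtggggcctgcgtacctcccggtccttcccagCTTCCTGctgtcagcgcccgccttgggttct
Wnt10a, 15673 bp from its start, chr1:74807089-74807289: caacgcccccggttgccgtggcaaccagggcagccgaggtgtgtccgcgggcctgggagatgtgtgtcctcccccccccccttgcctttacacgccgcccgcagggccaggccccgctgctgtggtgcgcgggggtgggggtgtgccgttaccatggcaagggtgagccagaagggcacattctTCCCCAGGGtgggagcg
The next was called in brown alone, in an intron of Wnt5a.
Wnt5a, 1945 bp from its start, chr14:28506595-28506795: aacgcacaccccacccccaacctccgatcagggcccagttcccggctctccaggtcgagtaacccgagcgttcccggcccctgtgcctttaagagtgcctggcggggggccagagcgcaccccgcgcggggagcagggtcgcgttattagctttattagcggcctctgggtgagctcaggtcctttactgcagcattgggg
The next 2 were called in both inguinal conditions but not in brown.
Lrp6, 43340 bp beyond its 3′ end, chr6:134403036-134403236: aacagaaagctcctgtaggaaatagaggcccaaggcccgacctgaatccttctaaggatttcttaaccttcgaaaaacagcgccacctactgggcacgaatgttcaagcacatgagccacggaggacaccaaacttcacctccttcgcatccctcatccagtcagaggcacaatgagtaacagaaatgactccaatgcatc
Tcf7l1, intron, 133731 bp from its start, chr6:72655423-72655623: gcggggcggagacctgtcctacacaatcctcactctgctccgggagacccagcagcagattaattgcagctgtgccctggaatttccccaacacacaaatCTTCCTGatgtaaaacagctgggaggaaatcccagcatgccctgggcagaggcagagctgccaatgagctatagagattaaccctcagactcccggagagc
Of the 3 of Tcf7l2, the first was called in beige alone, the next in beige and brown, and the last in all 6 libraries with very different ranks.
Tcf7l2, 776 bp from its start, chr19:55742496-55742696: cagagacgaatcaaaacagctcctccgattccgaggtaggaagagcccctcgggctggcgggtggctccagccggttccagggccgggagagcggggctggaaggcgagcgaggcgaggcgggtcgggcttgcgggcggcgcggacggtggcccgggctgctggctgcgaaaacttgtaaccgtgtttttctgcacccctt
Tcf7l2, intron, 43285 bp from its start, chr19:55785005-55785205: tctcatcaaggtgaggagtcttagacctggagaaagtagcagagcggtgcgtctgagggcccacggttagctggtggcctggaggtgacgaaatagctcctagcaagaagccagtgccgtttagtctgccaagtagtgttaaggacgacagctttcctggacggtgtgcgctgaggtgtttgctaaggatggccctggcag
Tcf7l2, intron, 27302 bp from its start, chr19:55769022-55769222: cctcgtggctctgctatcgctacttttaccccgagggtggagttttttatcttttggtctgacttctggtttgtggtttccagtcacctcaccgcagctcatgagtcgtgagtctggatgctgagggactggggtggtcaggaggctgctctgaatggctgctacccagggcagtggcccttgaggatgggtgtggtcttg

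At the promoters, 9 of the 10 members had a peak in all 6 libraries, and Wnt10a was the exception. Over all genes with an annotated start, 62.0% (13547 of 21851) had a promoter peak in all 6. The ligands had the weakest promoter peaks of the group. Those of Wnt5a, Wnt6 and Wnt10b lay between percentiles 0.229 and 70.5, and those of the inhibitor, the coreceptors, β-catenin and the TCF factors between 63.0 and 96.5. In 5 of the 6 libraries every ligand promoter ranked below every promoter of these 6 other genes. In brown replicate 2 Wnt5a, at 68.1, lay above Lrp5, at 63.0.

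**Figure D1:**
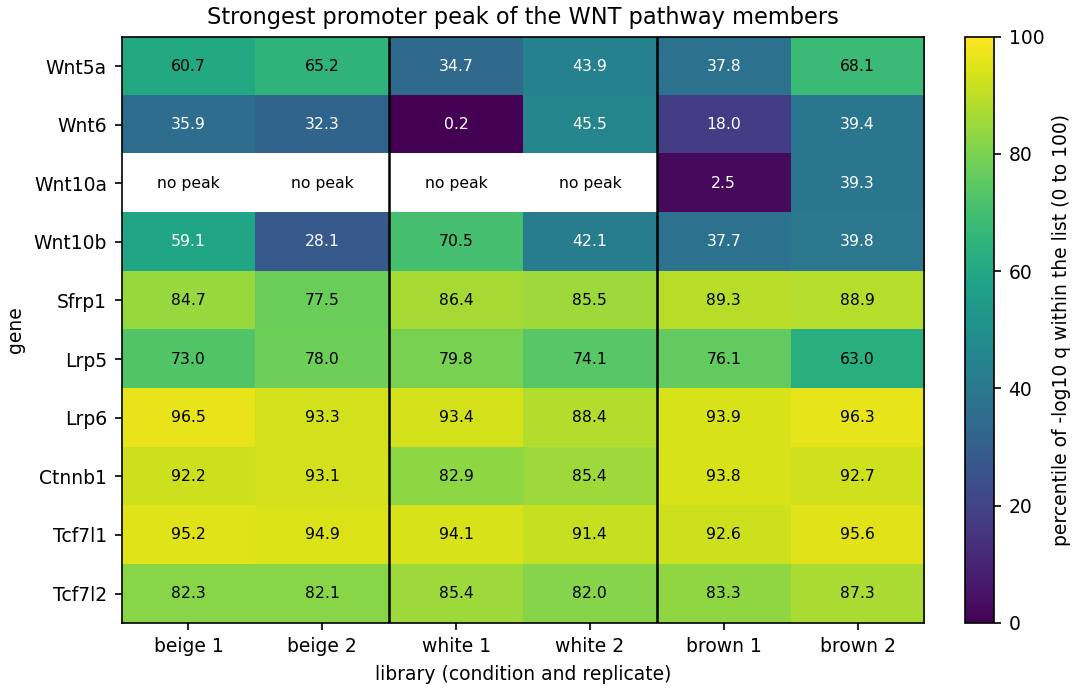
Strongest promoter peak of each member (rows, ordered by role) in each library (columns), as the percentile of its -log10 q within that library's list; white cells had no promoter peak. The 4 ligand rows are low, with Wnt10a called in brown alone, and the Lrp6 and Tcf7l1 rows are high in every column.

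Wnt10a (chromosome 1, 74791516 to 74804179, plus strand), a canonical ligand next to Wnt6, was open at its promoter in the 2 brown libraries only. The summits lay 190 and 221 bp after the start, in the UTR. The -log10 q was 2.63 in replicate 1 and 6.80 in replicate 2, at percentiles 2.50 and 39.3 of their lists. Over all genes 35 of 21851 (0.160%) showed this pattern at the promoter, Ucp1 among them. The first of the Wnt10a peaks lay close to the authors' threshold. At a q value under 0.00001, and with all lists cut to the same length, it was not called, so that the pattern rests on replicate 2.

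Beyond the 3′ end of Wnt10a lay the first regions shown above. The nearer one was called in beige at percentiles 24.6 and 56.5 and in brown at 18.9 and 52.9. The other, a little further on, was called in beige at 36.0 and 39.5 and in brown at 62.5 and 34.0. Neither had a peak in a white library. Within each region the values of the beige and brown libraries overlapped. The nearer one held a CAGGAAG and the other an EBF match. Both lay within a run of regions open everywhere, the strongest of which, 25494 bp after the start of Wnt10a, had percentiles of 95.2 and 95.2 in beige, 90.2 and 86.4 in white, and 94.3 and 92.9 in brown. A region in an intron, 3153 bp after the start, was ranked higher in brown (67.0 and 70.8) than in beige (26.3 and 57.8) and white (64.5 and 54.1). In a coding exon, 11773 bp after the start, white (70.2 and 80.5) lay above beige (57.7 and 57.4) and brown (51.1 and 52.8).

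**Figure D2:**
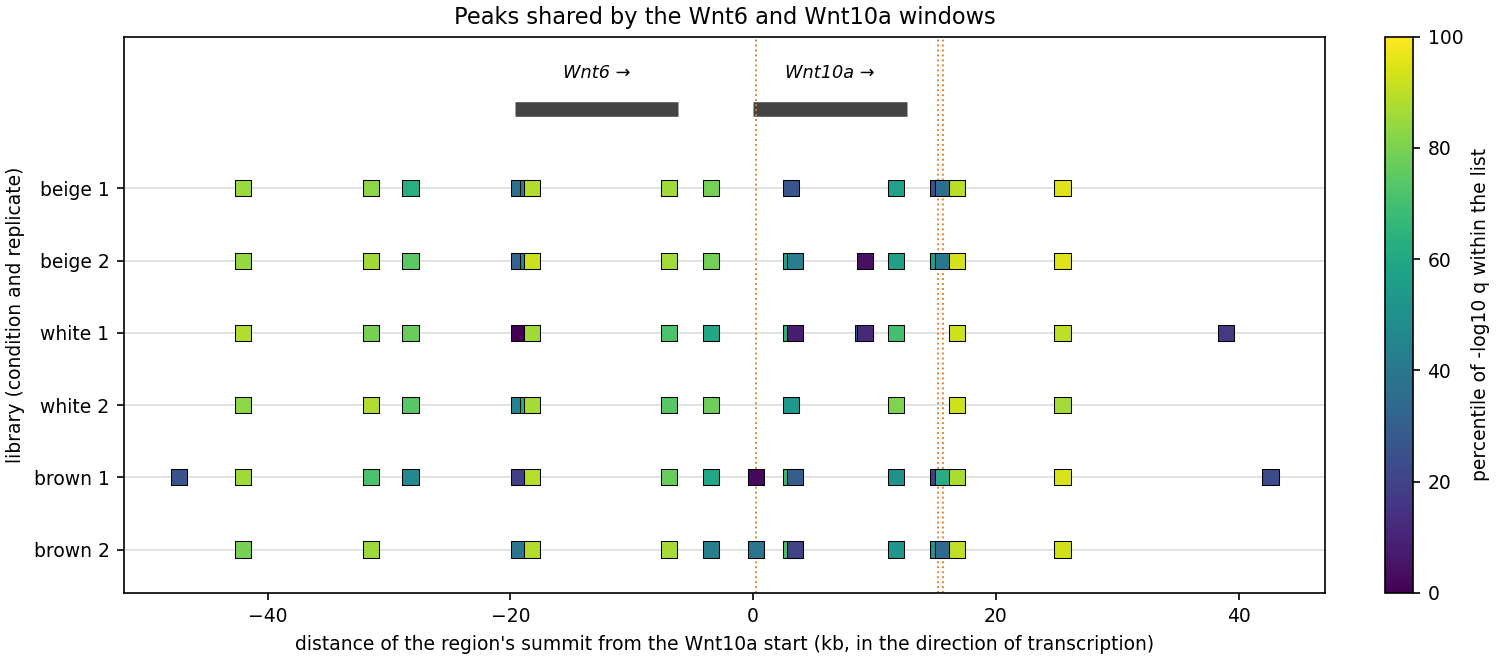
Regions shared by the windows of Wnt6 and Wnt10a (bars at the top, arrows for the direction of transcription), by the distance of their summit from the Wnt10a start in kb. Each square is a peak in 1 library, coloured by its percentile within the list, and dotted lines mark the 3 regions called in both libraries of some conditions only: brown alone at the Wnt10a start, and beige and brown at 15254 and 15673 bp.

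Wnt6 (chromosome 1, 74771892 to 74785322, plus strand), whose window shares 21 regions with that of Wnt10a, is a canonical ligand too. Its promoter peak lay 129 to 373 bp after the start, at percentiles 35.9 and 32.3 in beige, 0.229 and 45.5 in white, and 18.04 and 39.4 in brown. The white libraries thus held both the lowest and the highest value, and no condition stood apart. In white replicate 1 the -log10 q was 1.60, just inside the threshold, and the peak was lost at a q value under 0.01. A stronger region followed 1385 bp after the start and ranked from 85.7 to 92.0 in the 6 libraries. Near the 3′ end of Wnt6, at -6905 bp from the start of Wnt10a, beige (86.1 and 86.6) lay above white (71.1 and 73.5), with brown at 77.3 and 87.0.

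Wnt5a (chromosome 14, 28504750 to 28527448, plus strand) had its strongest promoter peak 737 to 771 bp after the start. Its percentiles were 60.7 and 65.2 in beige, 34.7 and 43.9 in white, and 37.8 and 68.1 in brown. Both beige values lay above both white ones, by 23.7 percentiles on average (63.0 ± 3.17 against 39.3 ± 6.55, SD, n = 2 each), while the brown libraries spanned nearly the whole range. At 1945 bp, in an intron, was the region shown above that was called in brown alone, at percentiles 31.0 and 48.6 and with a -log10 q of 7.01 and 8.90. None of the consensus letters was found in it. The second start, 6655 bp downstream, had a region called in beige at percentiles 0.291 and 5.20 and in brown at 35.9 and 41.1, so that the beige peaks were among the weakest of their lists. In white replicate 1 a separate peak lay at -737 bp from that start, at percentile 33.8, and white replicate 2 had none within 1 kb of it. The strongest region of the locus lay 5640 bp beyond the 3′ end and ranked from 88.3 to 95.2 in the 6 libraries.

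Wnt10b (chromosome 15, 98770712 to 98778150, minus strand), the ligand best known for restraining adipogenesis, had no peak within 1 kb of its first 3 annotated starts in any library. Its promoter peak was counted through starts 889 and 1121 bp further into the gene and lay in a coding exon. Its percentiles were 59.1 and 28.1 in beige, 70.5 and 42.1 in white, and 37.7 and 39.8 in brown. The replicates of beige and of white differed by more than the means of the conditions. Another region, at -2640 bp from the first start, was called everywhere at percentiles from 67.0 to 81.5. None of the 18 regions near Wnt10b was called in both libraries of some conditions and in no other. The strongest of them, at a mean percentile of 96.4, was the promoter of the neighbour Arf3.

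Sfrp1 (chromosome 8, 23411502 to 23449632, plus strand), the secreted inhibitor, had its promoter peak at -65 to -31 bp from the start. Its percentiles were 84.7 and 77.5 in beige, 86.4 and 85.5 in white, and 89.3 and 88.9 in brown. Both brown libraries were above the 4 inguinal ones, but the gap of the means was under the 10 percentiles used here as a minimum. It was the strongest of the 15 regions of the locus. At 4616 bp beyond the 3′ end a region was called in beige (23.6 and 29.4) and white (56.9 and 10.6) and not in brown. It held a CAGGAAG match. At 42509 bp beyond that end another was called in white alone, at percentiles 36.0 and 4.82.

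Lrp5 (chromosome 19, 3584828 to 3686564, minus strand) and Lrp6 (chromosome 6, 134446476 to 134566965, minus strand) encode the coreceptors that take up the ligand beside Frizzled. At the Lrp5 promoter the percentiles were 73.0 and 78.0 in beige, 79.8 and 74.1 in white, and 76.1 and 63.0 in brown. At the Lrp6 promoter they were 96.5 and 93.3 in beige, 93.4 and 88.4 in white, and 93.9 and 96.3 in brown. The 3 conditions overlapped at the Lrp5 promoter. At that of Lrp6 both brown values lay above both white ones, with a gap of the means under 10 percentiles, and beige overlapped both conditions. The window of Lrp6 was among the denser ones, with 50 regions or 22.7 per 100 kb, which is more than in 95.04% of all genes. Of the 50, 20 were called in a single library, as were 86 of the 275 regions near all members. The 20 and the 86 are totals over the 6 libraries. Taken singly, each library alone held from 2.91% to 8.73% of the 275, against 4.03% to 8.10% of all regions near genes.

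Inside Lrp5, 62649 bp from its start, a region ranked at 77.2 and 62.7 in beige, 69.5 and 64.2 in white, and 37.4 and 23.5 in brown. Both brown values lay far below the 4 inguinal ones, and the means differed by -37.9 (brown minus inguinal). In an intron of the neighbour Ppp6r3, 123700 bp from the Lrp5 start, brown was lower too (30.2 and 39.7, against 43.0 to 80.6). At 12256 bp, beige (63.7 and 57.5) lay above white (40.1 and 40.2) and brown (34.7 and 24.4) below both. At 44478 and 5086 bp white was higher than beige, with 64.5 and 51.6 against 31.6 and 32.9, and 69.6 and 84.1 against 58.1 and 45.2. Neighbouring elements of the same gene thus differed in opposite directions. An intronic region 43820 bp from the start was called in white alone, at percentiles 7.50 and 7.24, and another at 31490 bp in beige (8.64 and 12.1) and white (19.7 and 9.15), all of them weak.

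Near Lrp6, the strongest region that a condition lacked was the one shown above, 43340 bp beyond its 3′ end in a non-coding exon of Bcl2l14, an apoptosis facilitator of the Bcl2 family. Its percentiles were 71.7 and 82.4 in beige and 55.3 and 82.0 in white, with a -log10 q of 25.4, 48.2, 11.0 and 26.4. No brown library had a peak there. No other of the 18 regions called in some conditions only had a -log10 q above 10 in every library that called it. An intronic region, 21822 bp from the 5′ end of Lrp6, was called in white alone, at percentiles 35.4 and 22.0. At 38419 bp white (46.6 and 74.8) ranked above beige (29.8 and 33.7) and brown (36.4 and 16.997). In an intron of Mansc1, at -47931 bp from that end, beige (81.2 and 64.8) lay above white (59.0 and 45.1) and brown at 39.9 and 39.5.

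The PPARG DR1 consensus was found in 1 of the 275 regions, against 0.0552% of all regions near genes, and that region lay in an intron of Lrp6. PPARG is the master regulator of adipogenesis and the target of rosiglitazone. The match began 5 bp after the summit, on the minus strand.
Lrp6, intron, 93461 bp from its 5′ end, chr6:134473404-134473604: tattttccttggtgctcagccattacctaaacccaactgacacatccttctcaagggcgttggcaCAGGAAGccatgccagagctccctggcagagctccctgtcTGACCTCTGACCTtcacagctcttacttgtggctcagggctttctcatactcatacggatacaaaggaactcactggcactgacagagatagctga
Here the percentiles were 36.2 and 62.0 in beige, 30.4 and 71.4 in white, and 49.1 and 39.2 in brown. The white libraries, grown without rosiglitazone, held both the lowest and the highest value.

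Ctnnb1 (chromosome 9, 120929216 to 120960507, plus strand) had a single promoter peak in each library, ranked at 92.2 and 93.1 in beige, 82.9 and 85.4 in white, and 93.8 and 92.7 in brown. Both white values lay below the other 4. The means were 92.6 ± 0.580 in beige, 84.1 ± 1.79 in white and 93.2 ± 0.736 in brown (SD, n = 2 each), a gap under 10 percentiles. The summits lay 76 and 82 bp after the nearest start in white and at -91 to -67 bp from it in the other 4 libraries. Upstream, at -1797 bp from the 5′ end of the gene, brown (68.5 and 70.7) ranked below the 4 inguinal libraries (82.1 to 90.2). Of its 15 regions none was called in some conditions only.

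Tcf7l1 (chromosome 6, 72626378 to 72789254, minus strand), often a repressor of WNT targets, had promoter percentiles of 95.2 and 94.9 in beige, 94.1 and 91.4 in white, and 92.6 and 95.6 in brown. Both beige values lay above both white ones, with a gap of the means under 10 percentiles, and brown overlapped both conditions. Its window held 60 regions, 22.8 per 100 kb, which is more than in 95.3% of genes. Over all genes the median was 11.5. The strongest of the 60, at a mean percentile of 96.9, was the promoter of the neighbour Tgoln1. Within the gene, 3 regions open in all libraries ranked higher in white than in beige and 2 lower. At 77324 bp from the start the percentiles were 16.7 and 48.7 in beige, 80.1 and 64.4 in white, and 50.8 and 51.6 in brown. At 53834 bp they were 21.9 and 36.3 in beige, 57.6 and 74.3 in white, and 50.4 and 61.7 in brown. In both, white was highest and beige lowest, and beige minus white was -39.5 and -36.9. The region shown above, at 133731 bp, had the same order among the inguinal cultures, with 10.2 and 20.5 in beige and 76.0 and 63.4 in white, and no peak in brown. It held a CAGGAAG match. At 45356 bp the order was the reverse, with 71.4 and 83.6 in beige against 62.1 and 44.8 in white. Brown alone had a weak peak in an Elmod3 intron 42005 bp beyond the 3′ end (9.86 and 19.1), and at 144474 bp brown (37.7 and 42.2) lay below the inguinal libraries (55.6 to 67.7).

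Tcf7l2 (chromosome 19, 55741820 to 55933654, plus strand) encodes a TCF factor that partners β-catenin in many tissues. It has starts at its 5′ end and an internal start 153690 bp downstream. At the 5′ starts the percentiles were 82.3 and 82.1 in beige, 84.5 and 73.5 in white, and 83.3 and 87.3 in brown. Both brown values lay above both beige ones, with a gap of the means under 10 percentiles, and white overlapped both conditions. At the internal start the percentiles were 79.6 and 73.6 in beige, 85.4 and 82.0 in white, and 71.6 and 75.5 in brown. There both white values lay above the other 4. In white the internal peak outranked that of the 5′ starts in both libraries, while in beige and brown it was the weaker one in all 4. This contrast held for -log10 q only. Ranked by fold, the internal peak was the higher in every library, at percentiles from 73.2 to 88.7 against 50.5 to 80.6. The strongest region of the locus, in an intron 134978 bp from the first start, ranked from 87.8 to 90.9.

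Of the 18 regions called in some conditions only, 5 belonged to Tcf7l2, the most of any member. Its window was also the longest of the 10, at 291.8 kb, and held 49 of the 275 regions. Of the 49, 2 were called in beige alone, 2 in beige and brown, and 1 in beige and white. Over all regions near genes these patterns made up 2.05%, 1.29% and 1.18%. The share of each pattern over all regions is given with the counts below. The region shown above at 776 bp was called in beige alone, at percentiles 38.0 and 25.2. It runs from the end of the first coding exon into the intron. Also called in beige alone was an intronic region at 75346 bp (47.9 and 7.54). The regions at 43285 and 77613 bp were called in beige and brown, the former at 48.8 and 60.5 in beige and 9.86 and 18.4 in brown, the latter at 8.47 and 14.3 in beige and 25.3 and 17.7 in brown. At 25486 bp a region with an AP-1 match was called in beige (1.64 and 32.3) and white (36.0 and 35.4) and not in brown. Among the regions near members that were called in all 6 libraries, the widest gap in rank of both comparisons was that of brown and inguinal in the intronic region at 27302 bp, shown above. It had percentiles of 21.02 and 59.2 in beige, 6.24 and 4.01 in white, and 71.4 and 64.7 in brown. White was lowest, at the edge of calling, and brown highest, with a gap of 45.4 between the means of brown and the inguinal libraries and of 35.0 between beige and white. None of the consensus letters was found in it.

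Further along Tcf7l2, at 131961 bp, brown (58.3 and 60.8) lay above beige (45.1 and 17.3) and white (45.2 and 20.2), and at 86044 bp brown (6.39 and 43.0) lay below them (47.8 to 59.8). At 138971 bp white (79.1 and 77.7) ranked above beige (60.6 and 36.1), while at 1839 bp beige (63.1 and 68.5) ranked above white (54.6 and 29.4). Opposite orders of beige and white within a single gene were thus found in Lrp5, Tcf7l1 and Tcf7l2, whereas inside Lrp6 both regions with separate ranks, at 38419 and 95905 bp, were lower in beige.

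**Figure D3:**
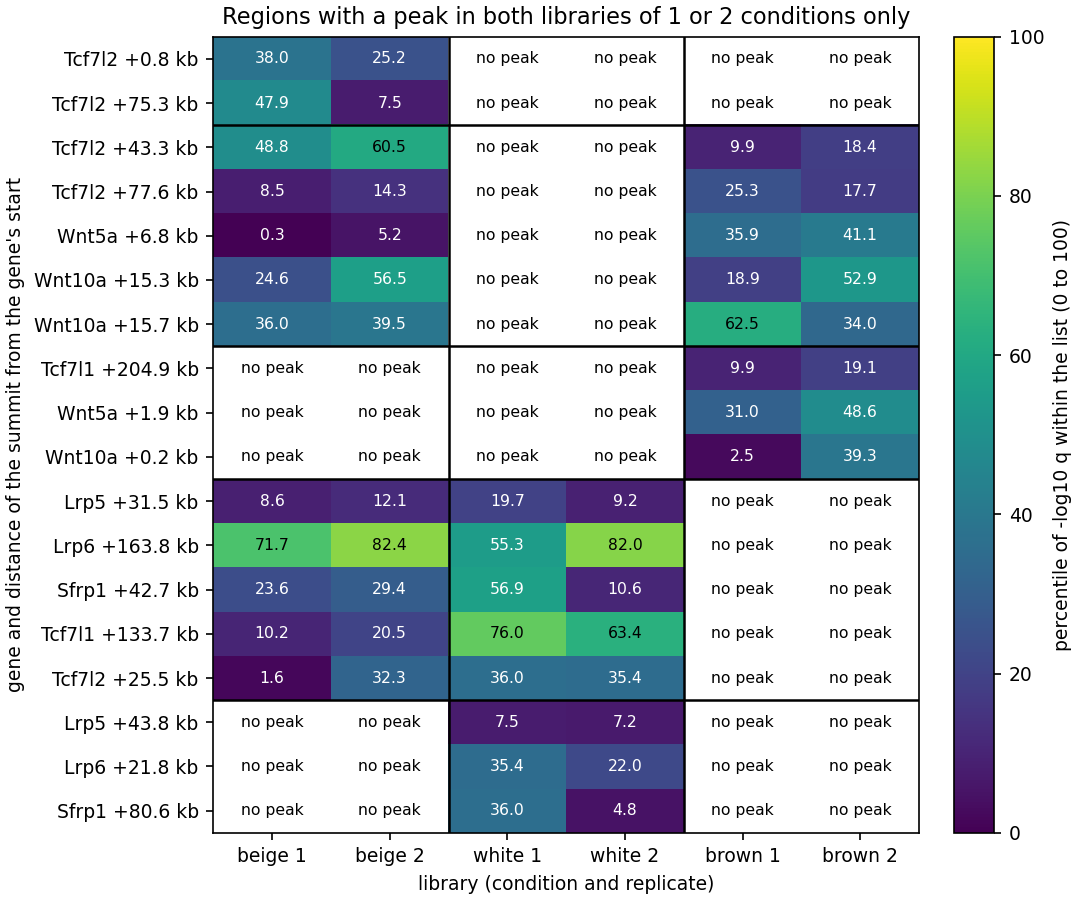
The 18 regions called in both libraries of 1 or 2 conditions and in no library of the rest (rows, named by gene and the distance of the summit from its start in kb), with the percentile in each library; white cells had no peak and lines separate the 5 patterns found. Most values are low in their lists, the Lrp6 region in beige and white being the strongest, and no row has white and brown without beige.

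Counted over all members, 96 of the 275 regions (34.9%) had a peak in all 6 libraries, against 32.4% of the regions near all protein-coding genes. By position 162 summits lay in introns, 70 between genes, 15 in UTRs and 14 in coding exons, and 29 at a promoter of some gene, 17 of them of a member. Another 86 were called in a single library, each library alone holding from 2.91% to 8.73% of the 275, against 4.03% to 8.10% of all. Both beige libraries and neither white one had a peak in 10 regions (3.64%, against 4.70% of all), and the reverse held in 4 (1.45%, against 1.90%). Between brown and beige there were 4 regions in brown and not in beige (1.45%, against 1.45%) and 10 in beige and not in brown (3.64%, against 4.97%). Between brown and white there were 11 in brown and not in white (4.00%, against 2.88%) and 12 in white and not in brown (4.36%, against 3.43%). With all 3 conditions considered, 2 regions were called in beige alone (0.727%, against 2.05%), 3 in white alone (1.09%, against 1.18%), 3 in brown alone (1.09%, against 0.811%), 5 in beige and brown (1.82%, against 1.29%), 5 in beige and white (1.82%, against 1.18%) and 0 in white and brown (against 0.226%). The share in beige alone was below that of all regions and the shares in beige with either other condition were above it, each count being 5 regions or fewer. Of the 18, 17 kept their pattern at a q value under 0.01 and 4 at a q value under 0.00001. These 4, which also kept it with lists of equal length and with nearby summits joined, were the Wnt5a intron region, the Wnt10a region at 15673 bp, the Lrp6 region in Bcl2l14 and the Tcf7l2 region at 776 bp.

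**Figure D4:**
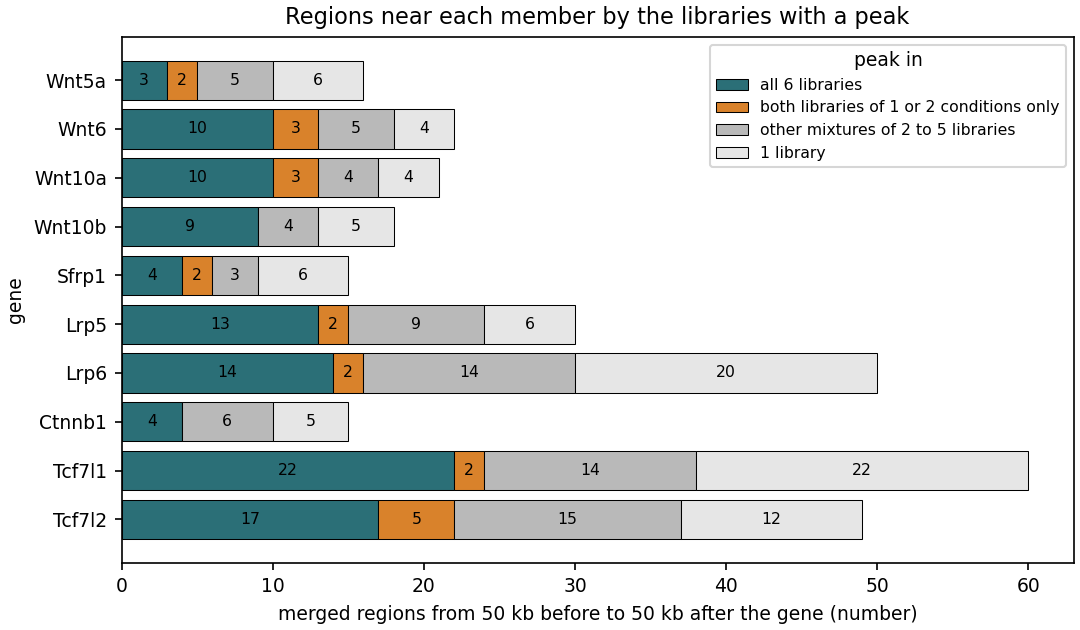
Number of merged regions in the window of each member, split by the libraries with a peak; the 21 regions shared by Wnt6 and Wnt10a are drawn for both. Tcf7l1 has 60 regions and Tcf7l2 has 5 called in some conditions only, while Wnt10b and Ctnnb1 have none of these.

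Among the 96 regions open in all 6 libraries, both beige percentiles lay above both white ones, with means at least 10 apart, in 11 (11.5%, against 15.5% of all such regions) and below them in 16 (16.7%, against 10.2%). Near the members these counts were 12 higher and 13 lower at a q value under 0.00001, where 80 regions were open in all 6 libraries. Their order turned to 16 higher and 14 lower when peaks were ranked by fold in place of -log10 q. At such other settings no share over all regions was computed, here or for brown below. The median difference of beige minus white was -0.434 percentiles near members and 1.16 over all. For comparison, the replicates differed by a median of -1.54 in beige and 2.25 in white near members. Of the 16, 5 lay in the window of Tcf7l1, at -14710, 53834, 77324, 103816 and 191928 bp from its start. Brown lay above the 4 inguinal libraries in 5 regions (5.21%, against 4.75%) and below in 9 (9.38%, against 8.79%). At a q value under 0.00001 the former count was 1, and with lists of equal length the latter was 5. The 5 were those of Tcf7l2 at 27302, 131961 and 215118 bp, of Wnt10a at 3153 bp and of Lrp6 at 131708 bp. The median difference of brown minus inguinal was -2.63 near members and -0.798 over all.

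**Figure D5:**
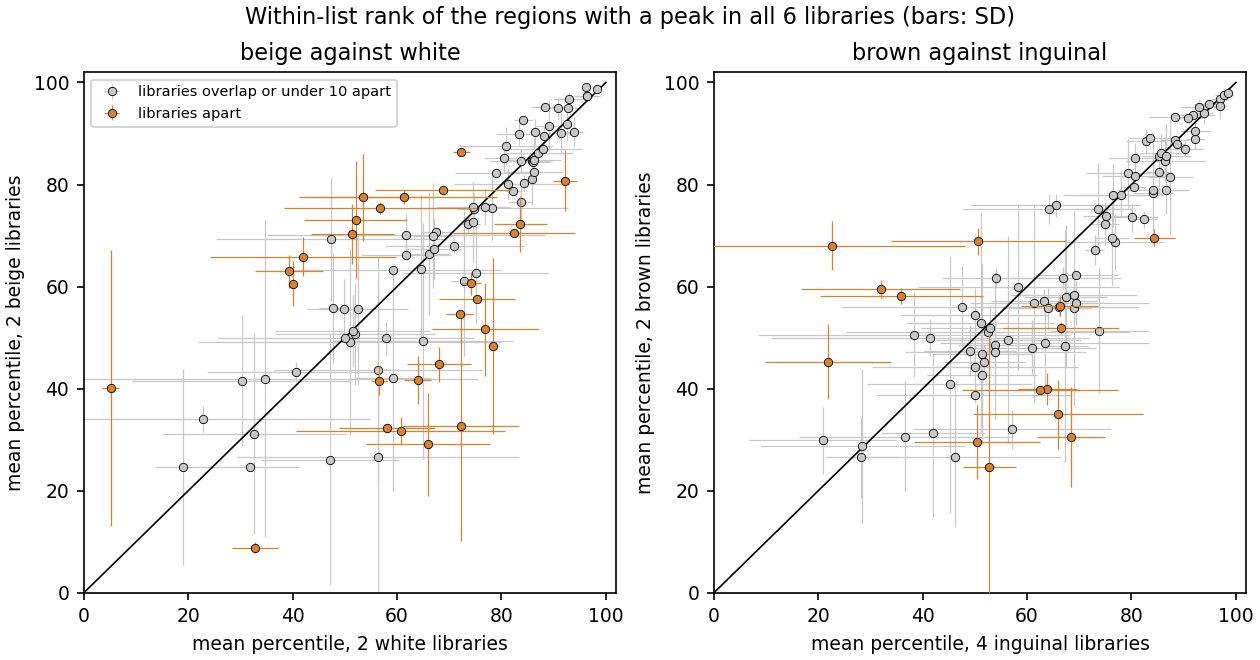
Mean within-list percentile of the 96 regions called in all 6 libraries, beige against white (left) and brown against the 4 inguinal libraries (right), with bars of 1 SD over the libraries and a line of equality. Orange points, whose libraries do not overlap and whose means are at least 10 apart, number 27 on the left and 14 on the right, and the points on the strongest peaks lie close to the line.

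The consensus of the pathway's own factors, TCF/LEF, was found in 1 of the 275 regions (0.364%, against 2.22% of all regions). This one lay at -562 bp from the start of Bcl2l14 in the Lrp6 window and was called in white replicate 2 alone. AP-1 was found in 59 (21.5%, against 20.1%), CAGGAAG in 37 (13.5%, against 10.3%), C/EBP in 25 (9.09%, against 11.99%), the glucocorticoid receptor consensus in 14 (5.09%, against 6.72%), and EBF in 12 (4.36%, against 5.92%). CCGGAAG was found in 4 (1.45%, against 2.67%), which were the promoters of Tgoln1 and Arf3, a Tcf7l2 coding exon and a region between Wnt10a and Cdk5r2. Among the 18 regions called in some conditions only, 4 held CAGGAAG, 3 AP-1, 2 the glucocorticoid receptor consensus and 1 EBF. Of all regions near genes with such patterns, 9.92%, 19.5%, 7.47% and 5.92% held these. The other consensus letters, C/EBP (14.7% of all such regions) among them, were not in the 18 windows. A match is a string of letters and not a bound site.

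Over all genes with an annotated start, 62.0% (13547 of 21851) had a promoter peak in all 6 libraries. Of 79 other WNT pathway genes listed by role, 69 had one in all 6. These were all 16 receptors and coreceptors, all 4 R-spondins, all 11 cytoplasmic components such as Axin1 and Gsk3b, all 8 nuclear partners such as Lef1 and Tcf7, 11 of 15 ligands, 8 of 13 inhibitors, 7 of 8 targets, and all 4 genes of ligand processing and receptor turnover. None was open at the promoter in both libraries of some conditions and in none of the rest, so that Wnt10a alone had such a pattern among the 89 genes. The exceptions, named after their values had been seen, were Wnt8a, Wnt8b, Dkk4, Sost and Kremen2, with no promoter peak in any library, Wnt3 and Wnt3a, with one in white replicate 2 alone, Sfrp5, with one in white replicate 2 and brown replicate 2, Dkk3, without one in white replicate 2 and brown replicate 1, and Ccnd1, without one in white replicate 2. Ligands and inhibitors thus held 9 of the 10 exceptions. Near these 79 genes 37.8% of 1544 regions had a peak in all 6 libraries, against 32.4% of all. There were 82 (5.31%, against 4.70%) in beige and not in white, and 22 (1.42%, against 1.90%) in white and not in beige. Between beige and brown, 75 (4.86%, against 4.97%) were in beige and not in brown and 15 (0.972%, against 1.45%) in brown and not in beige. Between brown and white, 47 (3.04%, against 2.88%) were in brown and not in white and 51 (3.30%, against 3.43%) in white and not in brown.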

How the data were processed

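Open chromatin of 6 adipocyte cultures was profiled by ATAC-seq. The authors used Trimmomatic 0.36 for adaptor trimming, BWA 0.7.17 for alignment to mm10, and MACS2 2.2.8 on each library separately, with a q value under 0.05. The deposited lists give each summit's fold (a ratio of the signal to that library's local background), -log10 p and -log10 q; no per-library read totals were used. Intervals were counted at their summit of highest -log10 q, merged at an overlap of 1 bp, and assigned with GENCODE release M21. A region was called open in a condition if both its libraries had a peak. Python 3.11.15 with numpy 2.4.6, pandas 2.3.3, scipy 1.17.1 and matplotlib 3.10.9 was used. The classification was run on simulated lists whose replicates were nearly alike. This checked the code and gives no rate of wrong calls for replicates that differ as the real ones do. Named were all 10 members, their promoters and strongest regions, all regions called in both libraries of some conditions only, and the 5 widest rank gaps per comparison. The members, gene lists and motifs were chosen with earlier results of these data known. The sequences with the widest rank gap and with the PPARG DR1 match, the further rank gaps named beside those 5, and the alternative that counts every summit of an interval were chosen after seeing the data. The RNA-seq, single-cell and ChIP-seq data of the study were not used here.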

Additional observations from a re-analysis of the deposited data

How the results depend on the processing

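With promoters of 250 bp, the members open at the promoter in every library fell from 9 to 4. With windows of 100 kb, 148 regions were open in all 6 instead of 96, and 7 in brown and not in beige instead of 4. With lists of equal length, 8 regions instead of 4 were open in white and not in beige, 7 in brown and not in beige, and 9 instead of 14 had brown apart from inguinal in rank. At a q value under 0.00001, 6 instead of 12 were open in white and not in brown, and 9 had brown apart in rank, of which brown was higher in 1 instead of 5. With lists of equal length brown was lower in 5 instead of 9. Ranked by fold, beige was higher than white in 16 instead of 11 and lower in 14 instead of 16, so that the order of these counts turned. With summits within 150 bp joined, 11 were open in white and not in beige, 7 in brown and not in beige, and 16 instead of 10 in beige and not in brown. These counts were made for the members only, without the share over all genes or regions at each setting. They therefore do not tell whether the members shifted more than the rest. The cause of these shifts was not tested.

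Leaving out a library frees its condition of the need for a second peak, so these numbers grow by construction. They ranged from 10 to 37 in beige and not in white, 4 to 31 in white and not in beige, 4 to 21 in brown and not in beige, 10 to 39 in beige and not in brown, 11 to 29 in brown and not in white, and 12 to 42 in white and not in brown. Separate ranks ranged from 28 to 43 for beige and white, the latter without white replicate 1, and from 17 to 28 for brown and inguinal, with brown lower in 19 without brown replicate 1, 24 without brown replicate 2 and 15 without beige replicate 2. Regions open in every remaining library ranged from 97 to 103, and members with a promoter peak in every remaining library stayed at 9. Leaving out a library loosens this requirement too, so these counts do not show stability. No paired analysis was possible because no value here comes from a test, and nothing in the labels ties same-numbered cultures of different conditions to each other. Depth is not known from the lists, so a peak just under the threshold and a closed site look alike.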
